A study of Homo sapiens with 18 samples.

Results

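Glutamate can leave its pool towards proline and towards γ-aminobutyric acid (GABA), and the 8 genes described here encode the enzymes of those routes. They are ABAT, GAD1, ALDH5A1, PRODH, PYCR1, ALDH18A1, ALDH4A1 and OAT, 8 of the 19849 genes measured, and all 8 were found by symbol with 1 probe set each. They were chosen by function and by their measured change upon the epithelial-mesenchymal transition (EMT), with earlier results of these data known, since ABAT was higher after EMT in all 3 cell lines and PRODH was lower in 2. The changes of these 8 genes upon EMT are therefore a description, with no p-value for a gene and with counts only beside the share of all genes. The differences between cell lines were not themselves used in the choice and were tested. They rest on the same arrays, and their shift from the parental to the mesenchymal state is tied to the changes that chose the genes. Changes of other genes of the pathway, listed by function but with earlier results of these data known, were tested too. The genes named from these lists were picked by these same changes, so their adjusted p-values are no independent support for them.

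Affymetrix U133 Plus 2.0 arrays, 18 in all, were used to profile A549, HCC827 and NCI-H358, which are 3 established lines of human lung cancer cells. Each line was profiled as parental cells and as mesenchymal cells derived from them by culture with 2 ng/ml TGFβ for 3 weeks, with 3 arrays in each of the 6 groups. All groups shared RPMI1640 with 10% fetal bovine serum and 4 mM glutamine, the amino acid from which glutamate is formed. TGFβ was withdrawn the day before the experiment, so the mesenchymal cells had been without it since then. The mesenchymal groups are treated populations of 1 line each, and no cloning is described for them. The 3 samples of a group are described as biological samples generated at the same time, and p-values measure the spread between them. Levels are log2 expression values after robust multiarray averaging (RMA), so a difference of 1 is a doubling of signal, and levels were compared only within a gene because probe sets differ in their affinity. A percentile places the mean signal of a group among the probe sets kept for all genes measured and is no ranking of transcripts.

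In the GABA route, GAD1 (glutamate decarboxylase) forms GABA from glutamate, ABAT (GABA transaminase) passes the amino group of GABA to α-ketoglutarate and so returns glutamate and succinic semialdehyde, and ALDH5A1 oxidises that semialdehyde to succinate, a tricarboxylic acid cycle intermediate. In the proline route, ALDH18A1 converts glutamate to pyrroline-5-carboxylate and PYCR1 reduces this to proline, while PRODH oxidises proline back to pyrroline-5-carboxylate and ALDH4A1 oxidises that to glutamate. OAT joins ornithine to the same intermediate. The GABA route is best known from the nervous system, and proline is an abundant residue of collagen.

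Of the 8 genes, 6 have an entry in the table of human promoters from RefSeq (GRCh38.p14). The 250 bases before the annotated gene start are shown for the genes that moved in every line (ABAT and ALDH5A1). They are also shown for those whose group means moved in different directions (ALDH18A1 and OAT), though OAT moved by only 0.14 in A549. Sequences run 5′ to 3′ on the gene's own strand. The windows are chr16:8674367-8674616 (+) for ABAT, chr6:24494719-24494968 (+) for ALDH5A1, chr10:95656712-95656961 (-) for ALDH18A1 and chr10:124418924-124419173 (-) for OAT. Capitals mark the core of the cyclic AMP response element (CRE).
ABAT: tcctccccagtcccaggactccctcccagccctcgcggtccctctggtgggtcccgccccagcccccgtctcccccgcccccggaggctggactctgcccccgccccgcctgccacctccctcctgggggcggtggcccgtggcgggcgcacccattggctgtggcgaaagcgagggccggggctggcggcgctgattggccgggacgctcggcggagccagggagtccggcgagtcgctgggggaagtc
ALDH5A1: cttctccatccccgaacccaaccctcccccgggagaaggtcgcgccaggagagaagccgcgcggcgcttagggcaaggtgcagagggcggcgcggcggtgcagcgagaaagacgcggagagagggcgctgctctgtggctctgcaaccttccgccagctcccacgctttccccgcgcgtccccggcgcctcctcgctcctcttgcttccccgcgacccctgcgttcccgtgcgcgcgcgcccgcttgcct
ALDH18A1: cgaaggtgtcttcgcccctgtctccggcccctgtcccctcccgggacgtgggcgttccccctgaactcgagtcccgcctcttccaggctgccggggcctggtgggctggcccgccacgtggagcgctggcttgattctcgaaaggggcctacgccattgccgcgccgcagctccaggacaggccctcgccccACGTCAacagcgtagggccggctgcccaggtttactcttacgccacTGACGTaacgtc
OAT: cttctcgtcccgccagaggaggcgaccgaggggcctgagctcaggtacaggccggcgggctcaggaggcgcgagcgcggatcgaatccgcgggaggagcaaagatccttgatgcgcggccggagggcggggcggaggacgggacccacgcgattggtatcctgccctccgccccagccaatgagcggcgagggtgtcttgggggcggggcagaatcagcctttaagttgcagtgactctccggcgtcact

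These windows were searched on both strands for the SMAD box (CAGAC or GTCTG), to which the SMAD factors downstream of the TGFβ receptor bind, for the ZEB and SNAI E-box (CAGGTG or CACCTG) and for the CRE core (TGACGT or ACGTCA). The ALDH18A1 window held 2 matches to the CRE core and 0 to the other 2 motifs, and the windows of ABAT, ALDH5A1 and OAT held 0 matches to all 3. Of 34941 RefSeq promoter windows of 250 bases, 38% held a SMAD box, 17.5% the E-box and 7.09% the CRE core. RefSeq gives ABAT further starts downstream, of which the window chr16:8713330-8713579 held 2 SMAD boxes and the window chr16:8712587-8712836 held 1 CRE core. The sequences of GAD1 and ALDH4A1 are not shown. The GAD1 window chr2:170816637-170816886 and the ALDH4A1 window chr1:18890892-18891141 each held 1 E-box, and neither lies at the annotated gene start. The ALDH4A1 window at the gene start held 0 matches. Which start the cells used cannot be read from these arrays, and a match describes letters in the window, not a bound site.

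The labelled states were checked against markers. All 5 mesenchymal markers (VIM, CDH2, ZEB1, FN1 and SNAI1) were higher in the mesenchymal group of every line. Of 4 epithelial markers, CDH1, EPCAM and KRT19 fell in every line, and ESRP1 fell in HCC827 and NCI-H358 but was already low in parental A549 (3.53 on the log2 scale, against 12.19 and 12.06 in the other parental lines). Of the lung lineage markers, NKX2-1 read 3.67 in parental A549 against 9.18 in HCC827, FOXA2 read 9.10 against 5.79, and FOXA2 fell upon EMT in every line (by 2.03, 1.81 and 4.86 in A549, HCC827 and NCI-H358). NAPSA fell in HCC827 (10.87 to 6.16) and NKX2-1 fell in NCI-H358. Of 4 markers of leucocytes and endothelium, PECAM1 was higher in mesenchymal than in parental HCC827 (5.07 against 4.66, limma adjusted p = 0.024) and 0 others passed in any line. The leucocyte marker PTPRC lay between 2.83 and 3.18 in all 6 groups. The part of these markers in the results was not tested. Array medians spanned 6.31 to 6.47, and in each line 1 parental array carries a sample number outside the run of the other 15. What the number stands for is not given, and values without these 3 arrays are given where they matter.

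ABAT was higher after EMT in each line and by most in A549. There ABAT moved, by group mean, from the 8.06th to the 64.2nd percentile of all genes measured. Its log2 level was 3.64, 3.03 and 3.22 in parental A549 and 7.15, 7.65 and 7.57 in mesenchymal A549. In HCC827 it was 6.47, 6.09 and 5.91 in parental and 7.63, 7.62 and 7.64 in mesenchymal cells, and in NCI-H358 2.81, 3.05 and 2.90 against 4.28, 4.09 and 4.36. No mesenchymal array overlapped a parental array of its own line. These are bulk samples, in which more cells with the transcript and more transcript per cell cannot be told apart. A549 showed a log2 fold change of 4.16 ± 0.16 (SE, n = 3 per group), HCC827 of 1.47 ± 0.16 and NCI-H358 of 1.32 ± 0.16, which are 17.9-fold, 2.77-fold and 2.50-fold differences of signal. Parental A549 and NCI-H358 lay at the 8.06th and 3.57th percentile, and detection calls were not analysed here, so whether ABAT was above background in these 2 groups was not tested, and the folds of these lines and their order rest on those levels. The measured increase in A549 exceeded that in HCC827 by 2.69 ± 0.23 and that in NCI-H358 by 2.84 ± 0.23 on the log2 scale, whereas the latter 2 differed by 0.15 ± 0.23.

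The level that ABAT reached differed between lines. Mesenchymal HCC827 and A549 were the highest of the 6 groups and overlapped (difference 0.17, 95% interval -0.17 to 0.51, limma adjusted p = 0.388), followed by parental HCC827, mesenchymal NCI-H358 and then parental A549 and NCI-H358. Parental HCC827 exceeded parental A549 by 2.86 (limma adjusted p = 6.95e-11). In the mesenchymal state NCI-H358 stayed below A549, by 3.21 (limma difference -3.21, adjusted p = 1.29e-11), and below HCC827 (difference -3.39, limma adjusted p = 1.09e-11). The 2 lowest groups, parental A549 and NCI-H358, differed by -0.38 (95% interval -0.72 to -0.04, limma adjusted p = 0.0542). This last difference passed the threshold without the second parental A549 array (-0.51, limma adjusted p = 0.0169) and was -0.15 (limma adjusted p = 0.424) without the 3 arrays numbered apart, and these p-values bound the range over all alternatives tried.

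**Figure D1:**
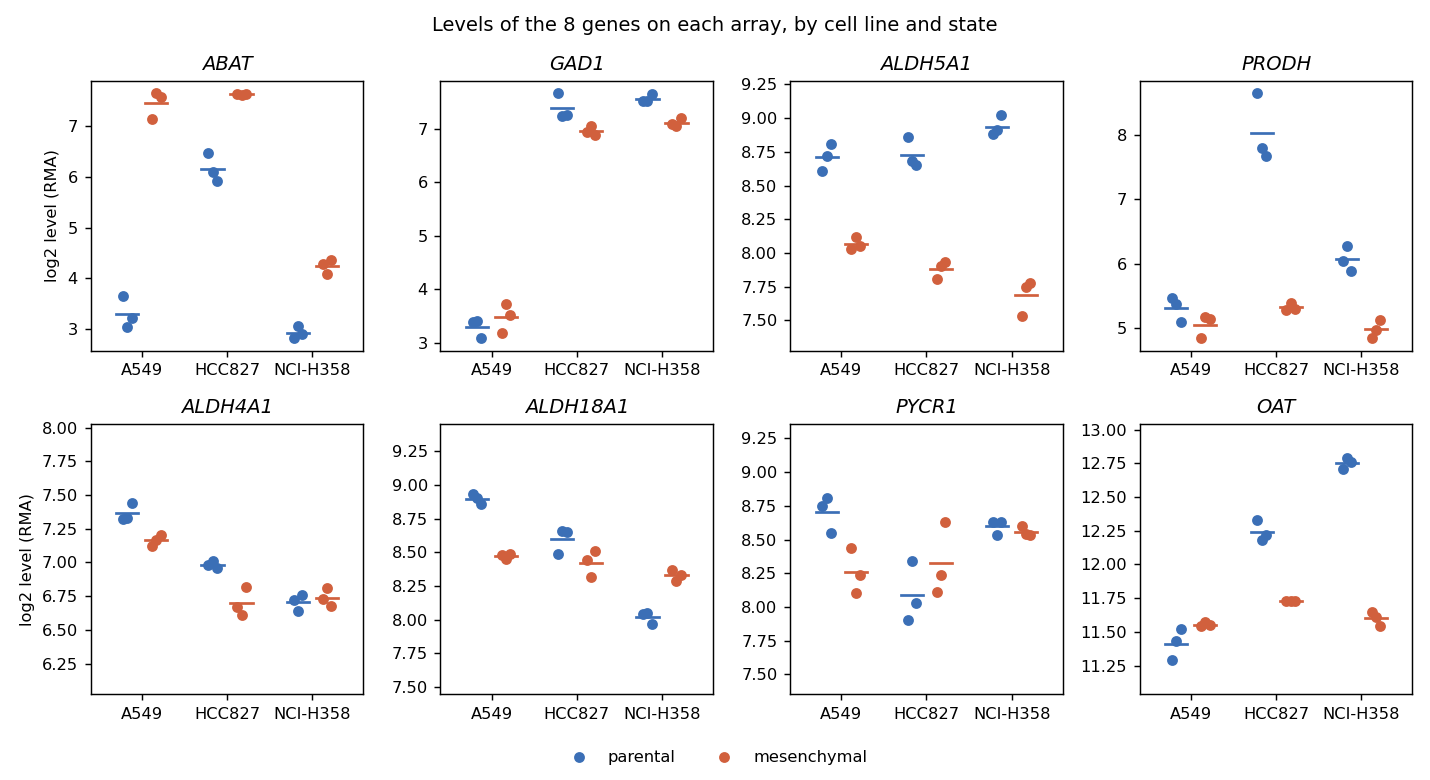
Level of each of the 8 genes (log2 RMA value, vertical axes with their own ranges) on each array of parental (blue) and mesenchymal (orange) A549, HCC827 and NCI-H358 cells. Points are arrays, 3 per group, and bars are group means. ABAT is higher in the mesenchymal arrays of each line, ALDH5A1 is lower in each, and PRODH is at 4.84 to 5.39 in all mesenchymal arrays.

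GAD1, which makes the GABA that ABAT consumes, was far lower in A549 than in the other lines, in both states. Arrays of parental A549 read 3.39, 3.41 and 3.08 on the log2 scale and those of mesenchymal A549 3.18, 3.73 and 3.51. In HCC827 the values were 7.66, 7.23 and 7.25 against 6.94, 7.04 and 6.89, and in NCI-H358 they were 7.52, 7.51 and 7.65 against 7.08, 7.04 and 7.19. The A549 groups overlapped, and in the other lines every mesenchymal array lay below every parental array. GAD1 changed by 0.18 ± 0.13 (log2, SE) in A549, by -0.42 ± 0.13 in HCC827 and by -0.46 ± 0.13 in NCI-H358. Without the arrays numbered apart the HCC827 value was -0.28. Parental A549 had less GAD1 than parental HCC827 by 4.08 (limma adjusted p = 4.93e-14) and than parental NCI-H358 by 4.26 (limma adjusted p = 2.34e-14). The differences were 3.48 and 3.63 in mesenchymal cells (limma adjusted p = 4.45e-13 and 1.9e-13). HCC827 and NCI-H358 differed by 0.18 in the parental and 0.15 in the mesenchymal state (limma adjusted p = 0.286 and 0.397). Thus the line with the greatest increase of ABAT was the line with the least GAD1, which lay at the 8.05th percentile of all genes in parental and the 9.41st in mesenchymal A549. Whether GAD1 was above background in A549 was not tested, so the differences from A549 are those of the measured signal.

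ALDH5A1, the step after ABAT, was lower after EMT in each line, in the opposite direction to ABAT. On the log2 scale it read 8.61, 8.72 and 8.81 in parental against 8.03, 8.12 and 8.05 in mesenchymal A549. It was 8.86, 8.68 and 8.65 against 7.81, 7.90 and 7.93 in HCC827, and 8.88, 8.91 and 9.02 against 7.53, 7.75 and 7.78 in NCI-H358. No parental array overlapped a mesenchymal array, within or between lines. The decrease was smallest in A549 (log2 fold change -0.65 ± 0.08, SE), followed by HCC827 (-0.85 ± 0.08) and NCI-H358 (-1.25 ± 0.08). NCI-H358 had the highest level of the 3 lines before EMT and the lowest after it. NCI-H358 was above A549 by 0.22 and above HCC827 by 0.20 in the parental state (limma adjusted p = 0.0266 and 0.0446), and it was below A549 in the mesenchymal state (difference -0.38, limma adjusted p = 0.000572). The mesenchymal difference between NCI-H358 and HCC827 was -0.20 and did not pass the test (limma adjusted p = 0.0528). These small differences sat near the threshold. Over the limma fits and the methods' t-test tried as alternatives, the adjusted p of the parental difference from A549 ranged from 0.0159 to 0.125. That of the parental difference from HCC827 ranged from 0.0126 to 0.154, and that of the mesenchymal difference from HCC827 from 0.0234 to 0.272.

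In the proline route, PRODH, which starts proline breakdown, showed the largest decrease of the 8 genes in HCC827 but not in the other lines. In HCC827 its log2 level was 8.65, 7.80 and 7.67 in parental and 5.28, 5.39 and 5.30 in mesenchymal cells, and in NCI-H358 6.05, 6.28 and 5.89 against 4.84, 4.97 and 5.13. In A549 it was 5.47, 5.37 and 5.09 against 4.84, 5.17 and 5.14, and these groups overlapped. The log2 fold change was -2.71 ± 0.19 (SE) in HCC827, -1.10 ± 0.19 in NCI-H358 and -0.26 ± 0.19 in A549, so that the level was 6.56-fold lower in HCC827 and 2.14-fold lower in NCI-H358. The highest HCC827 value came from the parental array numbered apart, which exceeded the mean of the other 2 by 0.91, and without such arrays the HCC827 fold change was -2.41.

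The PRODH levels of the 3 lines were apart before EMT and closer after it. This shift is tied to the changes that chose the gene and is a description. Parental HCC827 exceeded parental A549 by 2.73 (limma adjusted p = 1.37e-09), parental NCI-H358 exceeded A549 by 0.76 (limma adjusted p = 0.00228), and NCI-H358 lay below HCC827 (difference -1.96, limma adjusted p = 1.21e-07). In the mesenchymal state the 3 differences were 0.27, -0.07 and -0.34 (limma adjusted p = 0.249, 0.774 and 0.151). The last of these passed in a fit of the 2 groups alone (adjusted p = 0.0111), and its adjusted p ranged up to 0.341 over the alternatives. The decrease in HCC827 was larger than that in A549 by 2.46 ± 0.27 and than that in NCI-H358 by 1.62 ± 0.27. RefSeq lists a PRODH pseudogene, PRODHLP, and the PRODH probe set carries the suffix _s_at, which marks probes that can match several transcripts, so part of the PRODH signal may come from other transcripts. Of the 8 probe sets, 5 carry that suffix, those of ABAT, PRODH, PYCR1, ALDH18A1 and ALDH4A1.

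ALDH4A1, which completes proline breakdown to glutamate, changed little. Parental A549 arrays read 7.32, 7.33 and 7.44 on the log2 scale against 7.12, 7.17 and 7.20 for mesenchymal A549, and HCC827 read 6.98, 7.01 and 6.96 against 6.67, 6.61 and 6.82 in HCC827. In NCI-H358 it was 6.72, 6.64 and 6.76 against 6.73, 6.81 and 6.68. The groups were apart in A549 and HCC827 and overlapped in NCI-H358, with log2 fold changes of -0.20, -0.28 and 0.03 (SE 0.07 each). A549 had the most ALDH4A1 in both states. In parental cells HCC827 and NCI-H358 differed from A549 by -0.38 and -0.66 (limma adjusted p = 8.12e-05 and 1.34e-07), and in mesenchymal cells by -0.46 and -0.42 (limma adjusted p = 1.06e-05 and 2.57e-05). NCI-H358 was below HCC827 in parental cells (-0.27, limma adjusted p = 0.00187), and the 2 lines differed by 0.04 in mesenchymal cells (limma adjusted p = 0.667).

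**Figure D2:**
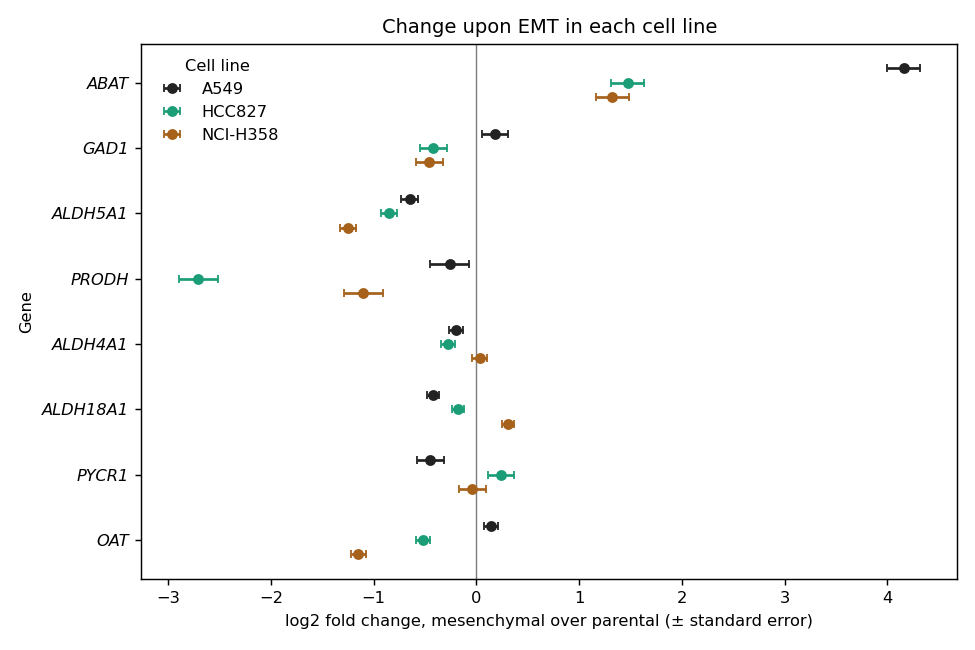
Change of each gene upon EMT (log2 fold change, mesenchymal over parental, horizontal axis) in A549, HCC827 and NCI-H358, with bars of 1 standard error from the fit. ABAT lies above 0 in each line, from 1.32 to 4.16, ALDH5A1 lies below 0 in each line, and OAT and ALDH18A1 lie on both sides of 0.

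ALDH18A1, the entry from glutamate to proline, changed in opposite directions in A549 and NCI-H358. Its log2 level was 8.93, 8.90 and 8.86 in parental against 8.48, 8.45 and 8.49 in mesenchymal A549. In NCI-H358 it was 8.04, 8.05 and 7.97 against 8.37, 8.29 and 8.33, with the mesenchymal arrays above the parental ones. In HCC827 the values 8.49, 8.66 and 8.65 overlapped 8.44, 8.32 and 8.51. These are log2 fold changes of -0.42 ± 0.06 (SE) for A549, -0.18 ± 0.06 for HCC827 and 0.31 ± 0.06 for NCI-H358. Parental NCI-H358 lay below A549 (-0.87, limma adjusted p = 2e-09) and below HCC827 (-0.58, limma adjusted p = 5.53e-07), and HCC827 lay below A549 (-0.30, limma adjusted p = 0.000658). In mesenchymal cells the same differences were -0.15, -0.10 and -0.05 (limma adjusted p = 0.0593, 0.238 and 0.529). The first of these passed under some alternatives. Over the limma fits and the methods' t-test its adjusted p ranged from 0.00629 (median centring, -0.22) to 0.157.

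PYCR1, the last step of proline synthesis, was at 8.75, 8.81 and 8.55 on the log2 scale in parental and 8.44, 8.10 and 8.24 in mesenchymal A549. In HCC827 it was 7.90, 8.34 and 8.03 against 8.11, 8.24 and 8.63, and in NCI-H358 8.63, 8.53 and 8.63 against 8.60, 8.54 and 8.53. The groups were apart in A549 and overlapped in the other lines, with log2 fold changes of -0.45, 0.24 and -0.04 (SE 0.13 each) in A549, HCC827 and NCI-H358. Parental HCC827 was below A549 (-0.61, limma adjusted p = 0.000561) and below NCI-H358, which exceeded it by 0.51 (limma adjusted p = 0.00317, and 0.0612 without the arrays numbered apart, the highest of the alternatives, which went down to 0.000721). Parental NCI-H358 and A549 differed by -0.11 (limma adjusted p = 0.51). In mesenchymal cells the 3 pairs of lines differed by 0.07 (HCC827 over A549), 0.30 (NCI-H358 over A549) and 0.23 (NCI-H358 over HCC827), with limma adjusted p = 0.686, 0.0567 and 0.152. The differences of 0.30 and 0.23 passed under some alternatives. Over the limma fits and the methods' t-test their adjusted p ranged from 0.019 to 0.209 and from 0.0118 to 0.508.

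OAT, the bridge from ornithine, was 11.29, 11.43 and 11.52 on the log2 scale in parental and 11.54, 11.57 and 11.55 in mesenchymal A549. In HCC827 it was 12.33, 12.18 and 12.22 against 11.73, 11.73 and 11.73, and in NCI-H358 12.71, 12.79 and 12.76 against 11.65, 11.61 and 11.54. The mesenchymal arrays lay above all parental arrays in A549, by a small margin, and below them in HCC827 and NCI-H358. The log2 fold change was 0.14 ± 0.07 (SE), -0.52 ± 0.07 and -1.15 ± 0.07 in A549, HCC827 and NCI-H358. Parental levels stood in the order NCI-H358, HCC827, A549, with NCI-H358 over A549 by 1.34 (limma adjusted p = 9.26e-12), HCC827 over A549 by 0.83 (limma adjusted p = 6.11e-09) and NCI-H358 over HCC827 by 0.51 (limma adjusted p = 3.61e-06). In mesenchymal cells the order was HCC827, NCI-H358, A549, and the lines differed by 0.05 (NCI-H358 over A549, limma adjusted p = 0.588), 0.18 (HCC827 over A549, limma adjusted p = 0.0304) and -0.13 (NCI-H358 against HCC827, limma adjusted p = 0.109). The difference of HCC827 from A549 did not pass when any of the 6 arrays was left out (limma adjusted p = 0.0504 to 0.0705) or after median centring (0.12), and over all alternatives the adjusted p ran from 0.000431 to 0.15.

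**Figure D3:**
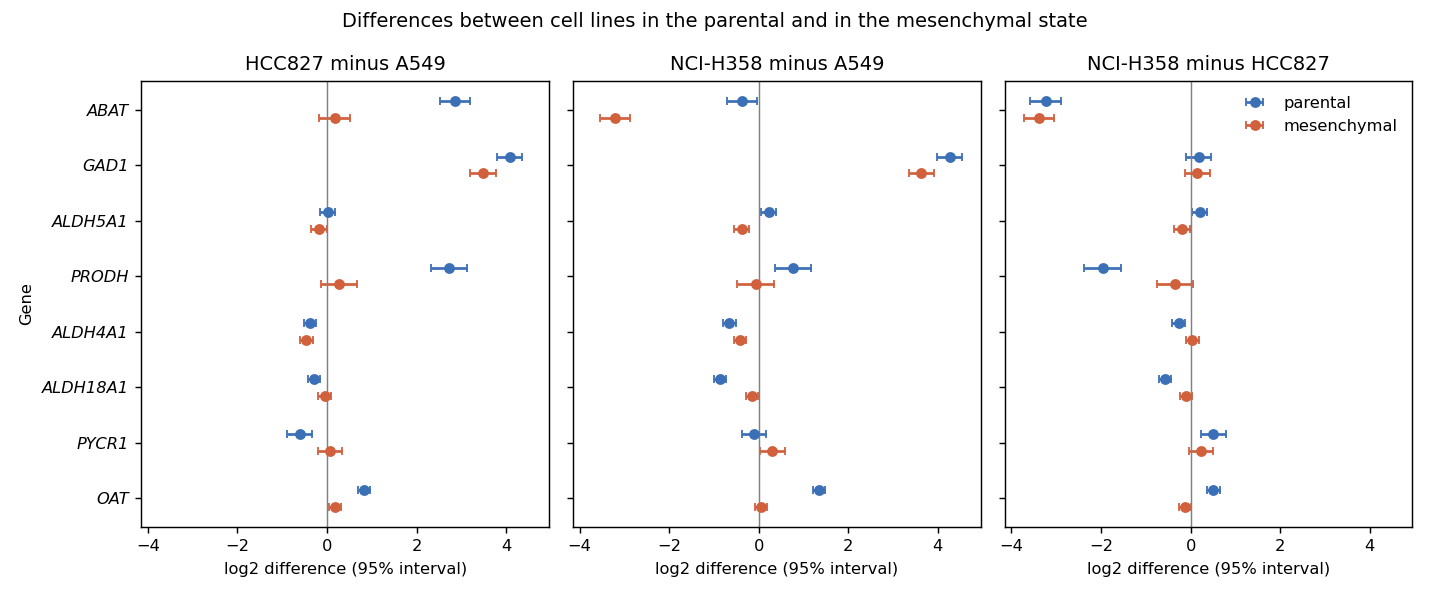
Difference between cell lines in each gene (log2, horizontal axis) in the parental (blue) and the mesenchymal (orange) state, with 95% intervals from the fit. The PRODH and OAT differences are nearer 0 in mesenchymal cells for each pair of lines, whereas the GAD1 differences from A549 are at 3.48 and 3.63 there.

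The genes called upon EMT are counted here as a description. At a limma adjusted p below 0.05 over all 19849 genes, 1 was higher and 4 were lower in A549, 1 was higher and 6 were lower in HCC827, and 2 were higher and 4 were lower in NCI-H358. Of all genes, 43.4% passed in A549 (16.6% higher and 26.8% lower), 45.8% in HCC827 (20.8% higher and 25% lower) and 41.4% in NCI-H358 (21.5% higher and 19.8% lower). In each line 6 of the 8 genes had parental and mesenchymal arrays that did not overlap, as had 52.4%, 51.2% and 51.6% of all genes in A549, HCC827 and NCI-H358. Because these comparisons chose the genes, nothing is read from the counts. The 8 genes had median log2 fold changes of -0.23 (A549), -0.35 (HCC827) and -0.25 (NCI-H358), against -0.02, 0.01 and 0.02 over all genes. At the thresholds of the study (a fold change over 5 with an adjusted p under 1e-05), ABAT passed in A549 and PRODH passed in HCC827, and 0 of the 8 passed in NCI-H358. Of all genes, 1.9%, 2.95% and 2.17% passed.

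The differences between lines were not themselves the values that chose the genes. In parental cells 7 of the 8 genes differed between HCC827 and A549, 6 between NCI-H358 and A549 and 7 between NCI-H358 and HCC827. Of all genes, 57.1%, 57.9% and 52.6% did. In the mesenchymal state the counts were 3, 4 and 1, where 56.6%, 58.8% and 52.6% of all genes differed. The 3 pairs within a state share arrays, and the difference between the 2 states in these counts was not itself tested. A line difference that shifts between the states is a difference in the change upon EMT. Such shifts are thus tied to the values that chose the genes. The 1 gene that differed between mesenchymal NCI-H358 and HCC827 was ABAT, and this count was 1 to 4 over other fits at the same threshold. The count of 3 for HCC827 against A549 was 2 when any 1 array was left out and up to 5 in other fits. The range of the 3 line means shrank from 2.73 to 0.34 for PRODH, from 1.34 to 0.18 for OAT, from 0.87 to 0.15 for ALDH18A1 and from 0.61 to 0.30 for PYCR1. It was 3.24 and 3.39 for ABAT and 4.26 and 3.63 for GAD1. The range was smaller in the mesenchymal state for 6 of the 8 genes and for 50% of all genes.

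Across the 18 arrays the genes whose log2 levels ran most like those of ABAT, among 6501 genes with a standard deviation of at least 0.5, were SAMD4A (Pearson r = 0.977), LOC285628 (0.969), INAVA (0.965), ARHGEF18 (0.961) and SORBS2 (0.952). The genes most like PRODH were REEP6 (r = 0.984), SGPP2 (0.98), ABCA12 (0.978), TXK (0.975) and MUC4 (0.975). These coefficients describe 6 group levels more than 18 separate points, because arrays of a group lie close together, and for PRODH they lean on the 3 high arrays of parental HCC827. Upon EMT the genes most like PRODH changed least in A549, between -0.34 and 0.17 on the log2 scale. They changed most in HCC827, between -4.81 and -2.60, a pattern that follows from how they were picked.

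The wider pathway was followed through 64 other genes in 6 lists, sorted by function. Of these, 12 rose and 17 fell in A549, 12 rose and 19 fell in HCC827, and 7 rose and 11 fell in NCI-H358, which is 29, 31 and 18 of 64 beside the 43.4%, 45.8% and 41.4% of all genes called. In all 3 lines 7 genes passed in the same direction, where 10.4% of all genes did. SLC6A13 and BCAT1 were the 2 that rose in each line, and GLUD1, GOT1, GPT2, AKR7A2 and ALDH9A1 were the 5 that fell in each line.

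Around the GABA route, SLC6A13, a GABA transporter of the plasma membrane, rose with ABAT. Log2 levels were 4.87, 4.73 and 4.56 in parental against 7.47, 7.53 and 6.92 in mesenchymal A549, and 4.10, 4.47 and 4.52 against 7.09, 6.59 and 6.58 in HCC827. In NCI-H358 it was 4.20, 4.25 and 3.86 against 4.61, 4.50 and 4.73. Every mesenchymal array lay above the parental arrays of its line. Parental SLC6A13 lay at the 26.2nd, 21.2nd and 17.1st percentile of all genes in A549, HCC827 and NCI-H358, and mesenchymal NCI-H358 at the 23.9th. Whether these levels were above background was not tested. A549 gained 2.58 on the log2 scale (limma adjusted p = 1.91e-09), HCC827 gained 2.39 (limma adjusted p = 3.67e-09) and NCI-H358 gained 0.52 (limma adjusted p = 0.0236, lost when 1 of 3 arrays was left out, with values down to 0.39). The counts by list stand beside 43.4%, 45.8% and 41.4% of all genes called in A549, HCC827 and NCI-H358. Of the 10 transporters of GABA and proline, 2 rose and 1 fell in A549, 4 rose and 2 fell in HCC827, and 1 rose in NCI-H358. Of the 6 other genes of GABA synthesis and breakdown, 0 rose and the same 2 fell in each line, AKR7A2, which reduces succinic semialdehyde, and ALDH9A1, which can form GABA from aminobutyraldehyde. AKR7A2 changed by -0.48, -0.36 and -0.48 in A549, HCC827 and NCI-H358 (limma adjusted p = 8.2e-06, 0.000155 and 7.39e-06), and ALDH9A1 by -0.37, -0.41 and -0.23 (limma adjusted p = 6.33e-05, 1.82e-05 and 0.00413).

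GABBR2, a subunit of the metabotropic GABA receptor, changed in a different direction in NCI-H358. Its log2 level was 5.19, 4.99 and 4.57 in parental and 11.04, 11.05 and 10.96 in mesenchymal A549. In HCC827 it was 3.59, 3.81 and 3.74 against 4.75, 4.45 and 4.68, and in NCI-H358 5.25, 5.49 and 5.15 against 3.60, 3.80 and 3.81. No groups of a line overlapped. GABBR2 rose 68.7-fold in A549 (log2 fold change 6.10, limma adjusted p = 8.24e-16), rose by 0.91 in HCC827 (limma adjusted p = 1.77e-05) and fell by 1.56 in NCI-H358 (limma adjusted p = 3.48e-08). GABRB1, a subunit of the GABA-gated chloride channel, fell by 2.91 in NCI-H358 (limma adjusted p = 2.68e-11). It changed by -0.11 and -0.14 in A549 and HCC827 (limma adjusted p = 0.598 and 0.463). Whether GABRB1, or GABBR2 in HCC827, NCI-H358 and parental A549, was above background was not tested. The 68.7-fold difference in A549 rests on that parental level. Of 21 receptor subunit genes, 4 rose and 2 fell in A549, 3 rose and 3 fell in HCC827, and 1 rose and 3 fell in NCI-H358. The share of all genes called was higher, at 43.4%, 45.8% and 41.4% in A549, HCC827 and NCI-H358.

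**Figure D4:**
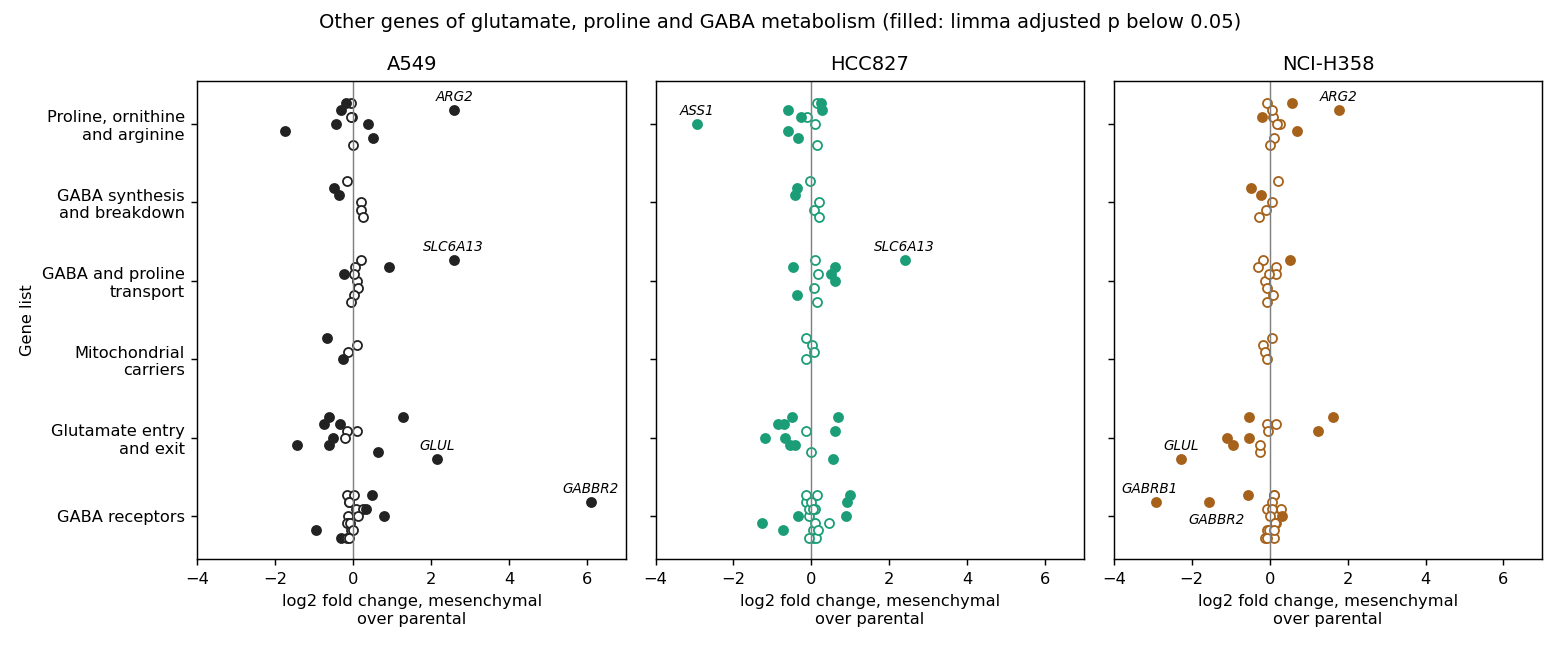
Change upon EMT (log2 fold change, mesenchymal over parental, horizontal axes) of 64 other genes of glutamate, proline and GABA metabolism in 6 lists (rows) and 3 lines (panels). Filled points passed a limma adjusted p below 0.05, and named points changed by more than 1.5 on the log2 scale among the genes the naming rule picks. GABBR2 in A549 lies farthest from 0, at 6.10.

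Around the proline route, 2 genes of the arginine and ornithine supply stood out. ARG2 is the mitochondrial arginase that yields ornithine, the substrate of OAT. It rose by 2.59 in A549 (limma adjusted p = 7.06e-11) and by 1.78 in NCI-H358 (limma adjusted p = 8.68e-09). In HCC827 ARG2 changed by -0.59 (limma adjusted p = 0.0015), which did not pass the methods' t-test (adjusted p = 0.0823). Parental ARG2 lay at the 20.2nd, 26.6th and 24.9th percentile of all genes in A549, HCC827 and NCI-H358, and mesenchymal HCC827 at the 18.2nd. Whether these levels were above background was not tested. ASS1, which makes the precursor of arginine, changed by -2.93 in HCC827 (limma adjusted p = 5.02e-12), 0.38 in A549 (limma adjusted p = 0.0224) and 0.27 in NCI-H358 (limma adjusted p = 0.111). The last 2 sat near the threshold, with adjusted p from 0.0014 to 0.071 in A549, lost when any of 3 arrays was left out, and from 0.0151 to 0.305 in NCI-H358 over the alternatives. Of the 11 genes of this list, 3 rose and 4 fell in A549, 2 rose and 5 fell in HCC827, and 3 rose and 1 fell in NCI-H358. These counts stand beside 43.4%, 45.8% and 41.4% of all genes called in A549, HCC827 and NCI-H358. Of 4 mitochondrial carriers, 2 fell in A549, among them SLC25A15, the ornithine carrier (-0.66, limma adjusted p = 0.00027), and 0 passed in the other lines. In HCC827 the difference of SLC25A15 was -0.14 (limma adjusted p = 0.384), and -0.33 without the arrays numbered apart (limma adjusted p = 0.0138), with adjusted p from 0.00866 to 0.968 over the alternatives.

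Where glutamate itself is made or spent, GLUL, glutamine synthetase, had the largest changes in A549 and NCI-H358, and these differed in direction. Its log2 level was 7.81, 7.55 and 7.70 in parental against 9.81, 9.91 and 9.82 in mesenchymal A549. It was 10.70, 10.62 and 10.63 against 11.19, 11.26 and 11.13 in HCC827, and 11.40, 11.40 and 11.67 against 9.23, 9.17 and 9.22 in NCI-H358. GLUL thus rose by 2.16 in A549 (limma adjusted p = 7.2e-13) and 0.55 in HCC827 (limma adjusted p = 1.91e-05) and fell by 2.28 in NCI-H358 (limma adjusted p = 4.29e-13). The share of all genes called was 43.4%, 45.8% and 41.4% in A549, HCC827 and NCI-H358. Of the 12 genes of glutamate entry and exit, 3 rose and 6 fell in A549, 3 rose and 7 fell in HCC827, and 2 rose and 5 fell in NCI-H358. The 4 that passed in the same direction in each line were GLUD1 (glutamate dehydrogenase; -0.63, -0.43 and -0.93 in A549, HCC827 and NCI-H358), GOT1 (-0.61, -0.51 and -0.53) and GPT2 (-0.51, -1.20 and -1.10), both aminotransferases, which fell, and BCAT1, a branched-chain aminotransferase, which rose by 1.29, 0.68 and 1.62. The limma adjusted p of these 12 changes ranged from 2.16e-09 to 0.000192. GLUD1, GOT1, GPT2, BCAT1 and ALDH9A1 were named after their values were seen, as members of the short list that moved alike in each line. The glutamate and glutamine levels that were also measured in these cells are not analysed here.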

How the data were processed

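Total RNA from 18 samples of parental or mesenchymal cells was hybridised to Affymetrix U133 Plus 2.0 arrays. The table deposited by the authors holds RMA-normalized log2 values, 1 probe set for each of 19849 genes, and how that probe set was chosen is not given in the sources used here. All 18 columns bear the title of 1 sample, and groups were taken from those titles. Arrays have no sequencing depth, and the 3 arrays per group limit the precision. Levels and differences are on the log2 scale as deposited.

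A linear model of all 18 arrays was fitted (limma 3.58.1, functions lmFit and eBayes, under R 4.3.3) with 6 groups and no covariate. P-values were two-sided and adjusted by Benjamini-Hochberg over all 19849 genes, and a gene was called at an adjusted p below 0.05, with the study's thresholds (adjusted p below 1e-05, fold change above 5) given beside. Standard errors and 95% intervals come from this fit. An exact permutation test of 3 against 3 arrays cannot go below p = 0.1 and was not used. The fitting steps were tested on simulated data.

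The 8 genes and the 6 lists of 64 pathway genes were chosen with earlier results of these data known. Named from each list were genes past the study's thresholds in a line, or else the gene with the largest change, and, for ABAT and PRODH, the 5 genes with the highest Pearson correlation over arrays. Alternatives were a separate fit, an intensity trend, array weights, median centring, dropping the dimmest 25% of genes, other thresholds, the methods' t-test with Benjamini-Hochberg adjustment, leaving out each array, and leaving out the 3 parental arrays numbered apart. The methods name limma for these arrays and give the t-test for data where no other test is specified. Promoter sequences are those of RefSeq (GRCh38.p14), and PRODH and PYCR1 had no entry in the table used.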

Additional observations from a re-analysis of the deposited data

Results flagged for a closer look

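Among the 8 genes, 2 had arrays that all moved one way in one line and the opposite way in another, a difference that was not tested because these changes chose the genes. The change of ALDH18A1 in NCI-H358 exceeded that in A549 by 0.73 on the log2 scale. The change of OAT in HCC827 minus that in A549 was -0.66, and in NCI-H358 minus that in A549 it was -1.29. In A549 itself OAT changed by only 0.14 ± 0.07 (SE) and was not among the genes called upon EMT.

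Among the named pathway genes, the changes upon EMT listed here differed between lines in a limma test of the difference itself. Values are on the log2 scale, with the adjusted p over all genes. The genes were named for the size of their change in a line, which favours such differences, so these p-values are no independent support. For GABBR2, the metabotropic GABA receptor subunit, the change was lower than in A549 by -5.19 in HCC827 (limma adjusted p = 1.33e-12) and by -7.67 in NCI-H358 (limma adjusted p = 1.92e-14), and NCI-H358 minus HCC827 was -2.48 (limma adjusted p = 1.77e-08). For GLUL, HCC827 minus A549 was -1.61 (limma adjusted p = 4.6e-09), NCI-H358 minus A549 was -4.44 (limma adjusted p = 2.36e-14) and NCI-H358 minus HCC827 was -2.83 (limma adjusted p = 8.58e-12). For ARG2 the same differences were -3.18, -0.81 and 2.36 (limma adjusted p = 6.75e-10, 0.00222 and 3.89e-08). For ASS1, HCC827 minus A549 was -3.31 (limma adjusted p = 1.95e-10) and NCI-H358 minus HCC827 was 3.20 (limma adjusted p = 5.18e-10). For SLC6A13, NCI-H358 minus A549 was -2.07 and minus HCC827 was -1.88 (limma adjusted p = 2.8e-06 and 9.93e-06). For GABRB1, NCI-H358 minus A549 was -2.80 and minus HCC827 was -2.76 (limma adjusted p = 5.93e-09 and 1.03e-08). For SLC25A15, HCC827 minus A549 was 0.52 and NCI-H358 minus A549 was 0.74 (limma adjusted p = 0.0227 and 0.00223). Without the 3 parental arrays numbered apart the first of these was 0.36 and did not pass (limma adjusted p = 0.0512), and the second was 0.78 (limma adjusted p = 0.000423).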

How the results depend on the processing

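Of 1245 single-gene values under an alternative, 1144 kept their direction and side of the threshold, 44 no longer passed, 47 passed anew and 10 changed sign, not counting those at 0 to 2 decimals. Those 10 belong to 4 differences between lines that were near 0 and did not pass the test. ALDH5A1 in parental HCC827 against A549 (0.02) was -0.03 with array weights and with centring, -0.10 without the 3 parental arrays numbered apart and -0.05 to 0.07 when each array was left out. PYCR1 in mesenchymal HCC827 against A549 (0.07) was -0.02 with array weights and -0.08 to 0.18 when each array was left out. OAT in mesenchymal NCI-H358 against A549 (0.05) was -0.03 with centring, and ALDH4A1 in mesenchymal NCI-H358 against HCC827 (0.04) was -0.01 to 0.10 when each array was left out. Requiring a fold change above 2 as well left 1, 2 and 4 of the 8 genes called upon EMT in A549, HCC827 and NCI-H358. Between parental lines it left 3, 2 and 2 (HCC827 and NCI-H358 against A549, NCI-H358 against HCC827). Between mesenchymal HCC827 or NCI-H358 and A549 it left 1 and 2. Of the 64 pathway genes it left 7, 4 and 7 in A549, HCC827 and NCI-H358. The share of all genes at this fold was not counted, so nothing is read from these counts. At the study's thresholds the counts of the 8 genes upon EMT were 1, 1 and 0, beside 1.9%, 2.95% and 2.17% of all genes. Between parental lines they were 3, 1 and 1, beside 5.15%, 6.19% and 3.32%. Between mesenchymal HCC827 or NCI-H358 and A549 they were 1 and 2, beside 4.51% and 5.83%. Those of the pathway genes upon EMT were 3, 2 and 1. Between mesenchymal HCC827 and A549, 5 genes were called in a separate fit in place of 3, and 2 when any 1 array was left out. Between mesenchymal NCI-H358 and HCC827, where 1 was called, the count was 4 with array weights and without the 3 parental arrays numbered apart, 3 with an intensity trend and with the methods' t-test, 2 with centring, in a separate fit and without dim genes, and 1 to 2 when each array was left out. The cause of these moves was not tested. With centring on array medians the change upon EMT was -0.11 for ALDH18A1 in HCC827, -0.13 for ALDH4A1 in A549 and 0.21 for OAT in A549. No paired analysis was possible because the labels give no replicate number shared between groups.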
